A study of Mus musculus with 36 samples.

Results

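Monocytes with an intermediate level of the surface protein Ly6C (Ly6Cint), sorted from bone marrow of mice with the genotype label Irf8 cKO, a conditional knockout of the gene for the transcription factor IRF8, were compared before and after conversion to osteoclasts. The comparison used 6 of the 34 libraries of the deposited expression table. They are the 3 libraries of osteoclast cultures (OC, day 4, with 20 ng/ml M-CSF and 40 ng/ml RANKL) and the 3 libraries of the matching bone marrow monocytes (BMM, day 0, kept in M-CSF), chosen by genotype, subset and stage in the labels. The whole study sorted Ly6C-high (Ly6Chi), Ly6Cint and Ly6C-negative (Ly6Cneg) cells from wild-type (WT) and cKO mice and sequenced total RNA at both stages. The labels list 36 samples, of which 2 are not analysed here. The 3 other pairs of groups used below are WT Ly6Cint, cKO Ly6Chi and cKO Ly6Cneg cells, with 3 libraries at each stage and the same culture. Per the series text, mice of both sexes were used. The Cre line behind the conditional knockout and the age of the mice are not stated in the labels. Nor do they say whether replicates are different animals or cultures. P-values therefore reflect only how much libraries vary within their groups, and part of that may be technical. This spread was pooled over all 34 libraries in 12 groups, so it is not that of the compared libraries alone.

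Osteoclasts are the multinucleated cells that dissolve bone. They form from monocyte-lineage precursors when M-CSF, acting on its receptor CSF1R, keeps the cells alive and RANKL, acting on RANK, starts NF-κB and calcium signals that raise the transcription factor NFATC1. The precursors then fuse, attach to bone through the integrin αvβ3 and pump acid and proteases onto it. IRF8 is known as a factor that specifies monocytes over neutrophils, drives interferon-response genes and restrains osteoclast formation.

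Values are on the normalised log2 scale of the deposited table, where 3.9 stands for 0 reads and a difference of 1 is 2-fold for genes with many reads. Changes are given as OC minus BMM with their standard error (SE), tested with limma over 38873 genes and called at a Benjamini-Hochberg adjusted p under 0.05. Values are not per length, so levels of different genes are not compared. The 3 osteoclast libraries correlated at 0.984 to 0.985 across genes, the 3 day 0 libraries at 0.965 to 0.97, and the stages with each other at 0.909 to 0.931. Relative depth was 0.786 to 0.87 at day 4 and 0.711 to 1.21 at day 0. Reads were found for 29059 to 33180 genes at day 0 and 23944 to 24639 at day 4, and for 491 to 775 against 105 to 179 of the 1051 olfactory receptor genes, which blood cells are not known to use. These groups did not overlap, and the exact two-sided permutation p of 0.1 is the smallest that 3 against 3 can give.

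The Irf8 gene itself was the check of the genotype label. Its level was 14.14, 14.39 and 14.22 in the day 0 libraries and 11.70, 11.85 and 11.96 in the osteoclast libraries. All osteoclast libraries were lower, by a change of -2.41 ± 0.08 (adjusted p = 1.59e-24). WT Ly6Cint cells had 13.38 ± 0.07 (SD, n = 3) at day 0 and 10.76 ± 0.03 at day 4, so Irf8 was higher in the libraries labelled cKO at both stages. A whole-gene value does not check the deletion of an exon, and the genotype is therefore written below as labelled cKO. The fall of Irf8 did not differ in a called way from the fall of -2.63 in WT Ly6Cint cells (difference 0.21 ± 0.12, adjusted p = 0.183). In Ly6Cneg cells labelled cKO the change was -0.56, and the difference from Ly6Cint cells was called (-1.85 ± 0.12, adjusted p = 1.66e-15).

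Osteoclast culture changed 18928 genes (48.7% of those tested), 6362 of them higher (16.4%) and 12566 lower (32.3%). The median over all tested genes was -0.34, the largest named rise 6.32 and the largest named fall -7.35. Of the called genes, 11590 changed by at least 1 (29.8%): 2887 rose by at least 1 (7.43%) and 8703 fell by at least 1 (22.4%). The split between rises and falls depended on weakly read genes. Among the 11229 genes with a group mean of 8 or above, 4709 of these calls were rises and 4078 falls. When those genes were fitted and adjusted on their own, 4859 rose and 4223 fell. With quantile normalisation, 48.4% of the calls were rises, against 33.6% as deposited, and the median of all genes moved to -0.02. The larger number of genes with any reads at day 0, olfactory receptor genes included, moved with the falls, and its part in them was not tested. None of the 43 gene lists used below had a median that changed sign under any scaling or filter tried, apart from T and NK cell markers, whose median went from -0.59 to 0.00 with quantile normalisation.

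The 15 named genes with the largest rises were Acp5, Mmp14, Coq8a, Src, Kbtbd11, Mt3, Slc9b2, Atp6v0d2, Ctsk, Ocstamp, Mst1r, Calcr, Steap4, Akap6 and Oscar, with changes of 5.74 to 6.32. Coq8a acts in coenzyme Q synthesis, Mt3 is a metallothionein, Mst1r a receptor kinase of macrophages and Akap6 an anchor of protein kinase A. Most of the others belong to the resorbing osteoclast and are described below. In all 15, day 0 replicate 2 had the lowest of the 3 day 0 values, and in 13 of the 15 largest falls it was lowest as well. The cause was not tested.

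Among receptors, Oscar, Calcr, Tnfrsf11a and Csf1r rose, and the 4 IgG receptor genes of the list, Fcgr1, Fcgr2b, Fcgr3 and Fcgr4, fell. Oscar, a collagen receptor that gives the calcium costimulatory signal, read 8.33, 7.49 and 8.04 at day 0 and 13.61, 13.65 and 13.80 at day 4. The groups were far apart, with a change of 5.74 ± 0.29 (adjusted p = 1.89e-14). Calcr, the receptor for calcitonin, read 7.62, 6.90 and 7.64 before and 13.23, 13.24 and 13.24 after culture, and the osteoclast libraries were nearly identical (change 5.85 ± 0.24, adjusted p = 2.2e-16). Tnfrsf11a, which codes for RANK, read 11.07, 11.30 and 11 and then 13.64, 13.46 and 13.33. It rose by 2.35 ± 0.14 (adjusted p = 3.63e-15). Csf1r, the M-CSF receptor, read 14.63, 14.82 and 14.74 and then 16.50, 16.51 and 16.42, a rise of 1.75 ± 0.09 (adjusted p = 1.6e-19). Trem2, another costimulatory receptor, fell by 1.97, the immunoreceptor adaptors Fcer1g and Tyrobp changed by -1.50 and -0.42, and the high-affinity IgG receptor Fcgr1 fell by 2.53. The call of Tyrobp was lost without OC replicate 1. Over the whole list of RANK, M-CSF and costimulatory receptors, 8 of 22 rose and 12 fell, with a median of -0.34. All tested genes had the same median, but genes with a group mean of 8 or above had a median of 0.06.

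The relays that carry the RANK signal inward rose more often than genes at large: 26 of 34 were higher and 5 lower, with a median of 0.73. Over all tested genes the median was -0.34, and over genes with a group mean of 8 or above it was 0.06. Nfkb2, the precursor of the noncanonical NF-κB subunit p52, read 11.21, 11.19 and 11.21 at day 0 and 13.73, 13.67 and 13.67 at day 4. Replicates differed by less than 0.1, and the change was 2.49 ± 0.06 (adjusted p = 2.07e-29). Its partner Relb rose by 2.12 and Traf6, the adaptor recruited by RANK, by 1.84. The feedback inhibitors of the same pathway rose too, Tnfaip3 by 2.90 and Nfkbia by 1.57. Traf1, a target of NF-κB, had the largest change of the list, 4.50, while the kinase gene Mapk14 fell by 0.66 and the calcineurin gene Ppp3ca by 0.74.

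**Figure D1:**
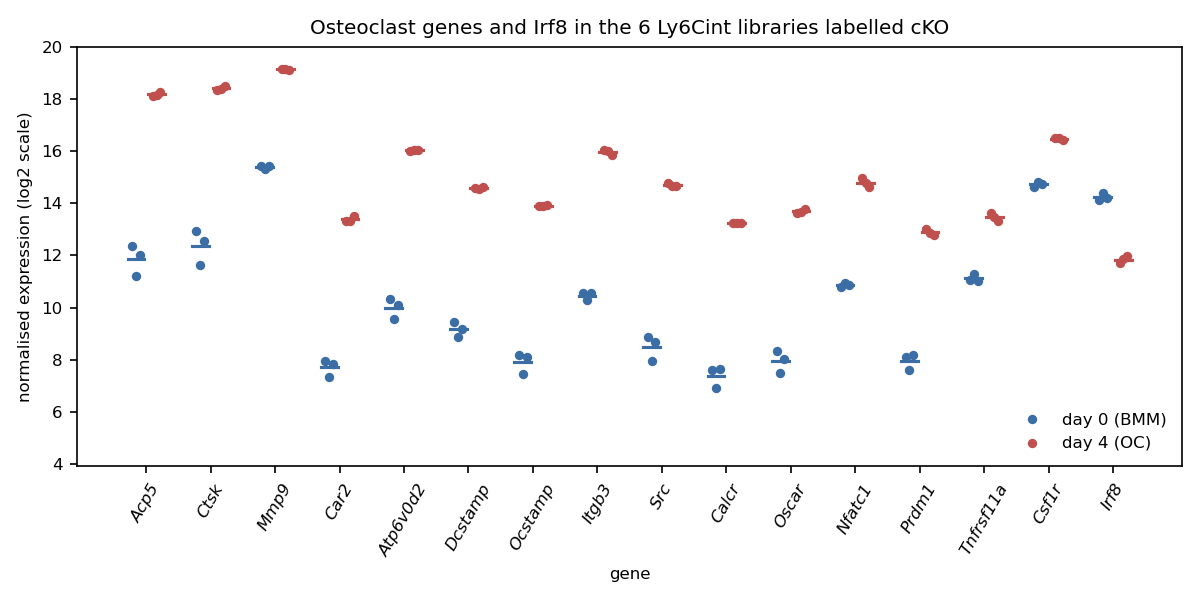
Normalised log2 values of 16 genes in each of the 3 day 0 (BMM) and 3 day 4 (OC) libraries of Ly6Cint cells labelled cKO, as points, with bars at the group means. Osteoclast genes such as Acp5 (12.35, 11.21 and 12.03 against 18.12, 18.16 and 18.27) are higher at day 4. Irf8 alone is lower (14.14, 14.39 and 14.22 against 11.70, 11.85 and 11.96).

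Transcription factors that drive the osteoclast program were split. Nfatc1, the master regulator, read 10.80, 10.96 and 10.85 at day 0 and 14.96, 14.78 and 14.61 at day 4, a rise of 3.91 ± 0.14 (adjusted p = 1.46e-19). Prdm1, whose product BLIMP1 silences repressors of osteoclast formation, read 8.10, 7.62 and 8.16 and then 13.01, 12.87 and 12.79. It rose by 4.93 ± 0.16 (adjusted p = 2.55e-20). The AP-1 family genes Jdp2 and Fosl2 rose by 3.72 and 3.22, the mitochondrial coactivator Ppargc1b by 3.76 and Mitf by 1.26. Fos rose by 0.67 and its relative Fosl1 fell by 2.03. In the list of activators, 11 of 20 rose and 6 fell (median 0.56). For comparison, 4709 of the 11229 genes with a group mean of 8 or above rose and 4078 fell. Of 15 repressors of osteoclast formation, 2 rose and 9 fell (median -0.79). Id1 fell by 4.44, Klf2 by 3.40, Id3 by 1.95 and Bcl6 by 1.69, whereas the repressor Foxo1 rose by 0.98. Dnmt3a, a DNA methyltransferase that in mice silences anti-osteoclast genes, rose by 3.21 ± 0.12 (adjusted p = 6.34e-21), from 11.11, 11.35 and 11.26 to 14.59, 14.46 and 14.30.

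The fusion genes with the largest changes were those of the osteoclast itself. Dcstamp, a membrane protein required for fusion, read 9.46, 8.87 and 9.17 at day 0 and 14.57, 14.56 and 14.64 at day 4 (change 5.42 ± 0.16, adjusted p = 6.37e-21). Ocstamp, its relative, read 8.19, 7.45 and 8.10 and then 13.89, 13.91 and 13.93 (change 6.0 ± 0.21, adjusted p = 2.98e-18). Both pairs of groups were separated by more than 5 units. The sialic acid receptor Siglec15 rose by 5.37. Members of the list with other roles in fusion fell, among them the tetraspanin gene Cd81 (-2.08) and the metalloprotease gene Adam8 (-1.76), so that 10 of 18 rose and 7 fell (median 0.46). With 4709 rises and 4078 falls among the 11229 genes with a group mean of 8 or above, these counts are not read as particular to the list.

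Genes of attachment and of the actin ring followed. Itgb3, the β3 chain of the integrin, read 10.56, 10.27 and 10.54 at day 0 and 16.03, 16.01 and 15.85 at day 4 (change 5.51 ± 0.24, adjusted p = 8.59e-16). Its partner Itgav rose by 3.55. Src, the kinase needed for the ruffled border, read 8.88, 7.96 and 8.66 and then 14.77, 14.68 and 14.68, with no overlap and a change of 6.21 ± 0.26 (adjusted p = 5.11e-16). The unconventional myosins Myo1d and Myo10 rose by 5.31 and 4.46, the collagen-binding integrin Itga2 by 4.55 and the actin regulator Cttn by 4.23. Itgam, the αM integrin chain of myeloid cells, fell by 2.14. In the list, 23 of 34 rose and 8 fell, with a median of 0.89.

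Acid secretion was the functional group with the largest median among those of the osteoclast, 1.64, with 24 of 29 members higher and 3 lower. Atp6v0d2, the osteoclast form of a proton pump subunit, read 10.32, 9.57 and 10.10 at day 0 and 16.02, 16.06 and 16.06 at day 4 (change 6.05 ± 0.19, adjusted p = 1.16e-18). Car2, the carbonic anhydrase that supplies protons, read 7.95, 7.33 and 7.85 and then 13.33, 13.31 and 13.50 (change 5.66 ± 0.24, adjusted p = 4.08e-16). Clcn7, the chloride-proton exchanger of the ruffled border, read 11.38, 11.25 and 11.26 and then 15.27, 15.21 and 15.17 (change 3.92 ± 0.08, adjusted p = 1.04e-31). In each of these all day 4 values lay above all day 0 values, and day 0 replicate 2 was the lowest value of each. Tcirg1, the pump's a3 subunit, mutated in osteopetrosis, rose by 2.71 ± 0.06, the sorting nexin gene Snx10 by 3.46, the bicarbonate exchanger Slc4a2 by 3.79 and the sodium-proton exchanger Slc9b2 by 6.12. Rab27a, a small GTPase of lysosome-related organelles, fell by 3.74, from a mean of 12.27 to 8.53.

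**Figure D2:**
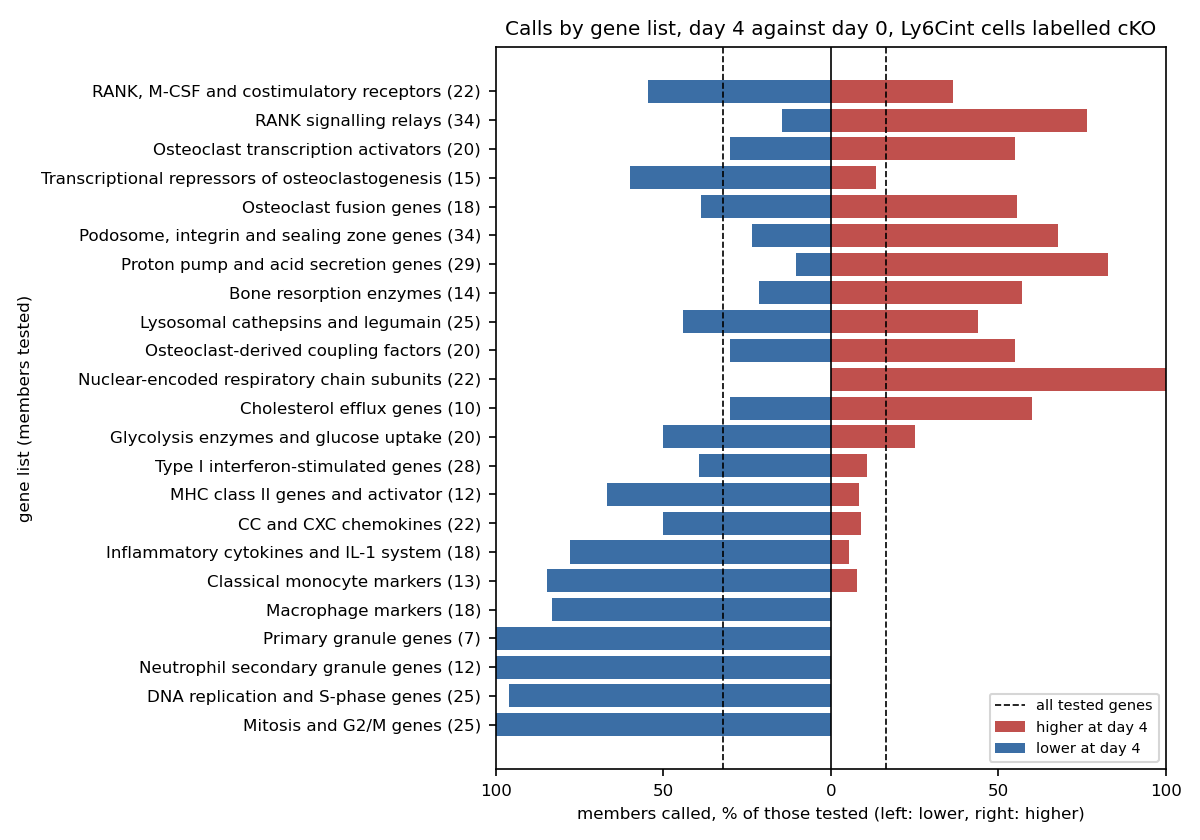
Share of the tested members of 23 gene lists that were called higher or lower at day 4 than at day 0, in percent, with dashed lines at the shares over all tested genes (16.4% higher and 32.3% lower). Respiratory chain, proton pump and RANK relay lists lie at the end of rises, and granule, S-phase and mitosis lists at the end of falls. The dashed lines include weakly read genes. Among the 11229 genes with a group mean of 8 or above, 4709 were called higher and 4078 lower in the same fit.

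Promoters of a gene with a rise at its extreme and of an acid secretion gene are shown because both hold the E-box read by MITF and its relatives, a factor family known to drive osteoclast genes. Sequences are from RefSeq on GRCm38.p6 and give the 250 bases before the annotated gene start, 5′ to 3′ in the direction of the gene, with the E-box (CACGTG or CATGTG, searched on both strands, so that CACATG also counts) in capitals. Oscar (chr7:3616158-3616407, minus strand) has it at bases 6 to 1 before the start, and Clcn7 (chr17:25133141-25133390, plus strand), for which the table has 2 entries, at bases 15 to 10.
Oscar: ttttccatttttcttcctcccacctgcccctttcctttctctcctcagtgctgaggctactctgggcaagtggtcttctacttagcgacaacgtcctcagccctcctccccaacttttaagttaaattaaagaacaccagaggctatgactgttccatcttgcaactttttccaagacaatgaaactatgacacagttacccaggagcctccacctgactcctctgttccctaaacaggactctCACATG
Clcn7: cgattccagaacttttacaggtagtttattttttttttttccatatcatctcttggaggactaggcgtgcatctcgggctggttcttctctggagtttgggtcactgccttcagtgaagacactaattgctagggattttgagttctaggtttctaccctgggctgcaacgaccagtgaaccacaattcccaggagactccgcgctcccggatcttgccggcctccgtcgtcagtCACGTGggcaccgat
Windows from 250 bases before to 50 after the start were searched in 18238 tested genes with an entry. The E-box was in 21.4% of them, in 21.3% of the genes that rose by at least 1 (405 of 1899 with an entry), in 31.8% of the acid secretion list (7 of 22) and in 50% of the lysosomal cathepsin list (9 of 18). A match is a description of letters, not of binding.

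Enzymes that digest the bone matrix had the highest single rise. Acp5, tartrate-resistant acid phosphatase, the classic osteoclast stain, rose by 6.32 ± 0.38 (adjusted p = 9.03e-13), from 12.35, 11.21 and 12.03 to 18.12, 18.16 and 18.27. Ctsk, the collagen-cutting cathepsin of osteoclasts, read 12.94, 11.64 and 12.55 and then 18.36, 18.38 and 18.50 (change 6.04 ± 0.39, adjusted p = 4.14e-12). For both, day 0 replicate 2 was about 1 unit below the other 2 day 0 libraries, and the osteoclast libraries agreed within 0.2. Mmp9, a gelatinase, read 15.42, 15.33 and 15.44 and then 19.16, 19.14 and 19.13 (change 3.75 ± 0.29, adjusted p = 1.2e-10). Mmp14, a membrane-bound collagenase, read 9.69, 8.66 and 9.33 and then 15.59, 15.51 and 15.50 (change 6.31 ± 0.25, adjusted p = 2.99e-16). Ckb, the brain-type creatine kinase that buffers ATP in osteoclasts, rose by 3.59. In the list of resorption enzymes and their inhibitors, 8 of 14 rose and 3 fell (median 0.83). The 3 were Mmp13 (-0.48) and the metalloprotease inhibitor genes Timp1 (-0.74) and Timp3 (-1.66). Each of these calls was lost under at least 1 alternative. Lysosomal enzymes as a whole were balanced, with 11 of 25 higher and 11 lower: Ctsf rose by 2.34, while Ctss and Ctsl, cathepsins of antigen-presenting cells, fell by 1.26 and 0.82.

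Signals by which osteoclasts act on bone-forming cells and vessels rose in part (11 of 20 higher, 6 lower, median 0.42). The shares over all tested genes were 16.4% higher and 32.3% lower. Over the 11229 genes with a group mean of 8 or above, 4709 were higher and 4078 lower. Pdgfb, a growth factor secreted by preosteoclasts in mice, read 10.07, 9.58 and 9.78 and then 14.75, 14.71 and 14.73 (change 4.92 ± 0.09, adjusted p = 6.9e-32). Sphk1, which makes sphingosine-1-phosphate, rose by 4.35, the ephrin gene Efnb2 by 3.53, Lif by 3.30 and the semaphorin gene Sema4d by 2.10. Igf1 fell by 2.22.

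Among genes of energy metabolism, all 22 nuclear-encoded respiratory chain subunits rose (median 1.28), Uqcrc2 of complex III by 2.77, Sdha of complex II by 2.52 and Cyc1 by 2.25. After median centring 19 of the 22 were called and after quantile normalisation 18. Of 13 mitochondrially encoded genes 7 rose and none fell (median 1.89). Their mean level was 10.91 to 11.14 at day 0 and 12.55 to 13.54 at day 4. Libraries of a single group differed by more in WT Ly6Cint osteoclasts (11.99 to 15.96) and Ly6Chi day 0 cells labelled cKO (10.93 to 14.40). They differed by less in some other groups, such as Ly6Chi osteoclasts labelled cKO (13.53 to 13.80). The size of this rise is therefore uncertain. Glycolysis genes fell more often, 10 of 20 against 5 that rose (median -0.55). Among those that fell were the glucose transporter Slc2a3 (-3.29) and the myeloid hexokinase Hk3 (-2.44), while Pdk1, a kinase that inhibits pyruvate dehydrogenase, rose by 2.13. Phgdh, the entry enzyme of serine synthesis, fell by 3.91. Of 11 iron uptake and storage genes 6 rose and 4 fell (median 0.51). The transferrin receptor Tfrc, the divalent metal transporter Slc11a2 and the ferrireductase Steap4 rose by 2.67, 2.81 and 5.83, and the exporter Slc40a1 fell by 1.26.

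Genes of the starting cell fell. Of the classical monocyte markers 11 of 13 fell and 1 rose (median -3.40). Ly6c2, which codes for the antigen used in the sort, fell by 5.37, from a mean of 14.46 to 9.09, and the chemokine receptor Ccr2 by 2.82. Chil3, a chitinase-like lectin, fell by 5.49 ± 0.27. Macrophage markers fell in 15 of 18 and rose in none (median -1.15), and non-classical monocyte markers fell in 10 of 12 (median -1.69). Ccl2, the main monocyte-attracting chemokine, read 13.45, 13.37 and 13.31 at day 0 and 7.89, 7.87 and 7.89 at day 4 (change -5.50 ± 0.16, adjusted p = 3.07e-22). Il1b read 11.17, 11.20 and 11.19 and then 6.66, 6.57 and 6.73 (change -4.53 ± 0.33, adjusted p = 2.32e-11). In both genes all osteoclast libraries were at least 4 units lower. Of 18 cytokine and interleukin 1 genes 14 fell and 1 rose (median -1.32). The chemokine Ccl9 and the chemokine receptors Ccr1 and Ccr3 were exceptions, with rises of 1.53, 2.75 and 2.77. In bulk RNA, fewer cells of a type and less RNA per cell cannot be told apart.

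Granule genes of neutrophils and their precursors were read strongly at day 0 and had the largest falls. Camp, a secondary granule peptide, read 17.12, 16.74 and 17.02 at day 0 and 9.44, 9.76 and 9.64 at day 4 (change -7.35 ± 0.34, adjusted p = 4.47e-15). Ltf, lactoferrin, read 17.68, 17.64 and 17.74 and then 12.40, 12.63 and 12.48 (change -5.18 ± 0.30, adjusted p = 3.27e-13). Elane, neutrophil elastase of primary granules, read 14.87, 14.59 and 14.78 and then 7.49, 7.85 and 8.16 (change -6.91 ± 0.42, adjusted p = 1.23e-12). The groups were 5 or more units apart in each case. Mpo, myeloperoxidase, fell by 6.26 ± 0.37, with 1 library, OC replicate 3 at 8.69, above the other 2 at 7.42 and 7.55. All 12 genes of the secondary granule list and all 7 of the primary granule list fell, with medians of -5.17 and -5.81. The mean level of the lists went from 15.75 to 15.88 down to 10.75 to 11.02 and from 12.97 to 13.15 down to 7.80 to 8.45. The secondary granule list also holds neutrophil genes that are not of granules, such as the receptor genes Csf3r and Cxcr2 and the surface gene Ly6g. The neutrophil surface gene Ly6g went from a mean of 11.46 to 7.33, and Ly6c2, the monocyte antigen, was as given above. Whether neutrophils or their precursors were among the sorted cells was not tested.

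Most markers of other cells fell or had no call. The mean list level was 6.19 to 6.67 at day 0 and 5.02 to 5.29 at day 4 for 12 B cell genes (10 fell), 5.6 to 6.21 and 4.77 to 5.11 for 11 T and NK cell genes (4 fell, 1 rose), and 5.17 to 5.73 and 4.59 to 4.85 for 6 erythroid and megakaryocyte genes (1 fell). Stromal and osteoblast genes stood at 5.81 to 6.47 and 5.31 to 5.40, with 8 of 15 lower and 1 higher. Mast cell, basophil and eosinophil genes stood at 6.69 to 6.92 and 5.47 to 5.52 (6 of 12 lower, 1 higher), and progenitor genes at 7.92 to 8.31 and 6.28 to 6.45 (7 of 10 lower). Hbb-bs, a hemoglobin chain of red cells, was at 3.9, 0 reads, at both stages. Of the dendritic cell genes 4 of 14 rose, Itgax by 2.16, and 8 fell. These falls moved with the larger number of genes that had reads at day 0, whose part in them was not tested.

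Cell cycle genes fell together. Of 25 S-phase genes 24 fell and none rose (median -1.67), and all 25 mitosis genes fell (median -1.65). Birc5, survivin, read 12.85, 12.50 and 12.84 at day 0 and 10.02, 10.03 and 10.16 at day 4 (change -2.66 ± 0.13, adjusted p = 1.42e-18). Top2a read 13.71, 13.92 and 13.91 and then 12.03, 12.04 and 11.84 (change -1.88 ± 0.11, adjusted p = 6.06e-18). Mcm5, part of the replicative helicase, read 12.86, 13.03 and 12.93 and then 11, 11.07 and 11.04 (change -1.91 ± 0.09, adjusted p = 8.1e-21). No osteoclast library reached any day 0 library in these 3 genes. Mki67, the standard proliferation marker, still averaged 12.06 at day 4, after 13.62. Of 11 cyclin-dependent kinase inhibitors and cell cycle exit genes 3 rose, Cdkn2b by 2.81, and 6 fell, Cdkn2d by 2.85.

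The same culture of WT Ly6Cint cells changed 11051 genes (28.4%), 5077 of them higher (13.1%) and 5974 lower (15.4%). The change differed between the genotype labels for 10119 genes (26%), 5046 with a more positive change in the cells labelled cKO (13%) and 5073 with a more negative one (13.1%), with a median of -0.24. Of the differences, 5255 were of at least 1 (13.5%). The 4 groups of this test share no library. Of the 10119 genes, 795 rose in the cells labelled cKO and fell in WT cells, 833 did the reverse, 1363 rose in both, 1264 fell in both, 4043 were called in the labelled cKO cells alone, 1643 in WT cells alone and 178 in neither. The libraries of the genotypes also differed in sex makeup. Ddx3y, a gene of the Y chromosome, read 10.48 to 10.83 in the 6 libraries labelled cKO and 4.72 to 5.69 in the 6 WT libraries, and Xist, the RNA of the inactive X, 12.22 to 13.44 against 14.21 to 14.78. Genotype label and sex makeup cannot be told apart here. Within the cells labelled cKO, Xist was also higher at day 4 (12.89 to 13.44) than at day 0 (12.22 to 12.39). That change was 0.87 ± 0.23 (adjusted p = 0.00315), while Ddx3y had no called change (-0.20, adjusted p = 0.288). Whether sex makeup differed between the stages was not tested.

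Interferon-stimulated genes made up 4 of the 8 most positive named differences, Rsad2, Ifit3, Mx1 and Ifit2. All 28 type I interferon-stimulated genes fell in WT cells (median -3.87) and all 28 had a more positive change in cells labelled cKO (median difference 3.79), where 3 rose and 11 fell (median -0.19). Rsad2, the antiviral protein viperin, read 8.18, 7.93 and 7.75 at day 0 and 8.72, 8.51 and 8.38 at day 4 in cells labelled cKO, and 14.51 ± 0.11 (SD, n = 3) and 8.60 ± 0.26 in WT cells. At day 0 the genotype labels were more than 6 units apart and at day 4 within 1 unit, with a difference of changes of 6.50 ± 0.32 (adjusted p = 1.54e-14). Ifit3 read 7.99, 6.98 and 7.53 and then 8.0, 7.93 and 7.45, with overlap and a change of 0.29 ± 0.27 (adjusted p = 0.403), while WT cells went from 13.93 ± 0.07 to 8.02 ± 0.05 (difference 6.20 ± 0.38, adjusted p = 1.98e-12). Isg15 read 8.94, 8.72 and 8.85 and then 8.66, 8.13 and 7.93, while WT cells went from 13.31 ± 0.04 to 8.82 ± 0.29 (difference 3.89 ± 0.33, adjusted p = 6.47e-10). The small changes of Rsad2 (0.59, adjusted p = 0.0361) and Isg15 (-0.59, adjusted p = 0.0377) within labelled cKO cells lost their calls when some single libraries were left out. The differences of changes between the genotype labels kept theirs.

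Promoters of these 3 genes are shown because they hold the interferon-stimulated response element (ISRE), the site read by IRF and STAT complexes. The 250 bases before the gene start are given as above, with GAAA, any 2 bases and GAAA, on either strand, in capitals. They are Ifit3 (chr19:34583279-34583528, plus strand), Rsad2 (chr12:26456453-26456702, minus strand) and Isg15 (chr4:156200819-156201068, minus strand).
Ifit3: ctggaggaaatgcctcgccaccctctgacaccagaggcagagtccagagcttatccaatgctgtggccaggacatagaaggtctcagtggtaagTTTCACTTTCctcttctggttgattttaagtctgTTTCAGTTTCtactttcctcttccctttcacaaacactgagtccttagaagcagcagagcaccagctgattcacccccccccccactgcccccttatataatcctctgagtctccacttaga
Rsad2: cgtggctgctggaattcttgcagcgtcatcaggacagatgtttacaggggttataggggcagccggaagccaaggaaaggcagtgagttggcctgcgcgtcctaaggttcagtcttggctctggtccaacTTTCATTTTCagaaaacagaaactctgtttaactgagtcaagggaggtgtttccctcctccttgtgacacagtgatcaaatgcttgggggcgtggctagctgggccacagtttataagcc
Isg15: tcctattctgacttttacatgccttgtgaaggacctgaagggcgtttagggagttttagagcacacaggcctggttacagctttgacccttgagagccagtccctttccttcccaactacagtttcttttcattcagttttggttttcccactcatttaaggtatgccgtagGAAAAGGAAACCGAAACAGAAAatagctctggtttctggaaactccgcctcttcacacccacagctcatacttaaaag
Ifit3 holds 2 matches, at bases 156 to 147 and 122 to 113 before the start, Rsad2 has 1 at bases 120 to 111, and Isg15 has 3 that overlap, at bases 78 to 57. The motif was in 3.93% of all promoter windows searched (716 of 18238), in 55% of the type I list (11 of 20 with an entry) and in 64.3% of the interferon-gamma list (9 of 14). It was in 2.26% of the genes that rose by at least 1 in culture of the cells labelled cKO and in 4.34% of those that fell by at least 1. The related ETS-IRF element (GGAA, any 2 bases and GAAA), which can overlap the same letters, was in 3.08% of all windows and in 5 of the 14 interferon-gamma list windows.

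Further immune gene lists differed in the same direction. Of 21 interferon-gamma-inducible GTPase and antigen processing genes, 19 had a more positive change in cells labelled cKO and none a more negative one (median 2.90). Group medians of the list were 8.40 at day 0 and 8.82 at day 4 in the cells labelled cKO, against 12.24 and 9.53 in WT cells. The 12 MHC class II genes had a median change of -0.52 over culture of the cells labelled cKO, with 8 lower and 1 higher. All 12 fell in WT cells (median change -1.84), and 8 had a more positive change in cells labelled cKO. Of 18 Toll-like receptor and adaptor genes 15 had a more positive change there and 1 a more negative one. Adgre4, a myeloid adhesion receptor, read 7.59, 7.09 and 7.21 and then 9.29, 9.47 and 9.35 and rose by 2.08, whereas in WT cells it fell by 4.31 (difference 6.39 ± 0.19, adjusted p = 1.42e-24). Ms4a4c had a difference of 5.90.

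**Figure D3:**
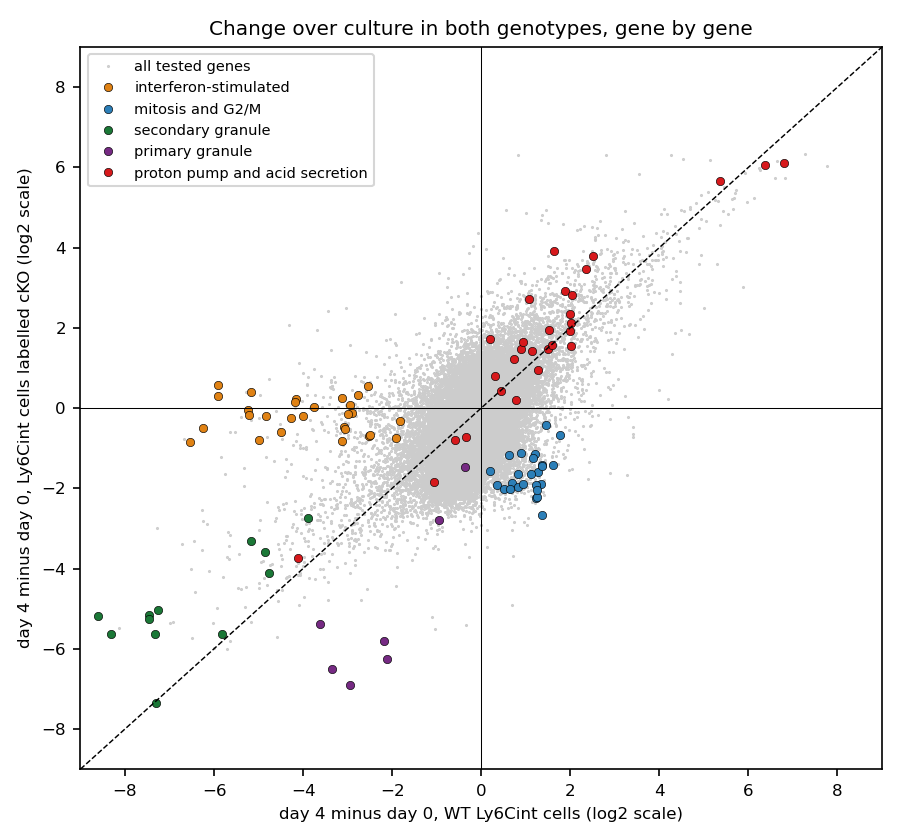
Change over osteoclast culture (OC minus BMM, log2) in Ly6Cint cells labelled cKO against the change in WT Ly6Cint cells, 1 point a gene, with 5 gene lists coloured and a dashed line of equal change. Interferon genes lie left of 0 for WT and near 0 for labelled cKO, and mitosis genes fall in labelled cKO and rise in WT.

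Osteoclast signalling genes rose more in the cells labelled cKO, from lower day 0 levels. The genotype labels were further apart at day 0 than at day 4 for the RANK relay medians, Nfkb2, Prdm1 and Tnfrsf11a, but not for Nfatc1. Group medians of the RANK relays at day 0 and day 4 were 10.95 and 12.04 in labelled cKO cells and 11.78 and 11.89 in WT cells. Of the RANK relays 25 of 34 had a more positive change and 1 a more negative one (median 0.68), but after quantile normalisation several of the smaller differences, such as those of Traf3 and Map3k7 (0.57 each), lost their call. Nfkb2 rose by 0.51 in WT cells (13.02 ± 0.03 to 13.53 ± 0.02), 1.97 ± 0.08 less than in labelled cKO cells (adjusted p = 7.71e-21). The differences of change were 1.43 ± 0.20 for Nfatc1 (adjusted p = 1.76e-06), 3.48 ± 0.23 for Prdm1 (adjusted p = 8.7e-13), 1.21 ± 0.19 for Tnfrsf11a (adjusted p = 1.12e-05) and 2.29 ± 0.11 for Clcn7 (adjusted p = 2.58e-19). At day 0 the means in labelled cKO and WT cells were 10.87 and 11.40 for Nfatc1, 7.96 and 10.85 for Prdm1 and 11.12 and 11.94 for Tnfrsf11a. At day 4 they were 14.78 and 13.88, 12.89 and 12.30, and 13.47 and 13.08. Csf1r went the opposite way in WT cells, from 17.10 ± 0.03 to 16.15 ± 0.04 (difference 2.69 ± 0.12, adjusted p = 7.19e-20). Mmp14 stood at 13.86 ± 0.05 in WT cells at day 0 already and at 14.68 ± 0.05 at day 4, so its difference of change was 5.48 ± 0.36 (adjusted p = 1.37e-11). The cholesterol exporter Abca1 rose by 3.37 in labelled cKO cells and changed by -0.95 in WT cells (difference 4.33 ± 0.28, adjusted p = 3.69e-12), and of 10 cholesterol efflux genes 9 had a more positive change in labelled cKO cells and 1 a more negative one.

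Resorption and attachment genes were mixed in this comparison. Of the resorption enzymes and their inhibitors 3 of 14 had a more positive change in labelled cKO cells and 3 a more negative one (median difference -0.15). Of the acid secretion genes 12 of 29 had a more positive change and 1 a more negative one, and of the attachment genes 16 of 34 and 2 (median difference 0.30 for each list). Under the alternatives tried the more positive counts ran from 9 to 14 and from 9 to 18, and the more negative ones from 0 to 5 and from 2 to 6. Among all 11656 genes with a group mean of 8 or above, fitted and adjusted on their own, 4769 had a more positive change and 3390 a more negative one (median 0.14). The more positive counts of these lists are therefore not read as particular to them. Src rose more in labelled cKO cells (difference 1.67 ± 0.36, adjusted p = 0.00102). Ctsk rose by 7.76 in WT cells, from 10.05 ± 0.10 to 17.81 ± 0.07, which was 1.73 ± 0.56 more than in labelled cKO cells (adjusted p = 0.0235, a call lost without BMM replicate 1 or 3 of the cells labelled cKO). Acp5 (difference -0.95 ± 0.54, adjusted p = 0.221), Oscar (-0.87, adjusted p = 0.124), Dcstamp (-0.29 ± 0.23, adjusted p = 0.398) and Calcr (-0.07, adjusted p = 0.931) had no called difference. At day 4 the means of Acp5 were 18.18 ± 0.08 and 17.58 ± 0.08 and at day 0 11.86 ± 0.59 and 10.31 ± 0.06 for labelled cKO and WT cells.

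Cell cycle genes moved in opposite directions under the 2 genotype labels. In WT cells 24 of 25 mitosis genes and 23 of 25 S-phase genes rose, and all 50 differences were called, with medians of -2.78 and -2.83. Group medians of the mitosis list were 11.60 and 10.07 in cells labelled cKO and 10.02 and 11.12 in WT cells at day 0 and day 4. Birc5 rose by 1.37 in WT cells, from 10.11 ± 0.08 to 11.48 ± 0.15 (difference -4.03 ± 0.18, adjusted p = 1.16e-18), and Mcm5 by 1.39 (difference -3.30 ± 0.12, adjusted p = 2.32e-22). Ccl2, at 8.61 ± 0.15 in WT cells at day 0, fell by 1.05 there (difference -4.45 ± 0.23, adjusted p = 1.1e-15). Npy, neuropeptide Y, read 10.54, 10.25 and 10.39 and then 8.56, 8.78 and 8.85 in cells labelled cKO and rose from 8.35 ± 0.05 to 11.61 ± 0.15 in WT cells (difference -4.93 ± 0.21, adjusted p = 3.98e-18).

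The primary and secondary granule lists differed in opposite directions. Primary granule genes fell more in cells labelled cKO in 7 of 7 (median difference -3.15), with group medians of 13.57 and 7.83 against 8.75 and 6.22 in WT cells. Secondary granule genes fell less in 9 of 12 and more in none (median difference 1.78), with group medians of 16.15 and 10.97 against 14.55 and 8.24. Elane had a difference of -3.96 ± 0.60 (adjusted p = 1.38e-05) and Ltf of 3.41 ± 0.42 (adjusted p = 6.87e-07), while that of Camp was -0.04 ± 0.48 (adjusted p = 0.982).

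**Figure D4:**
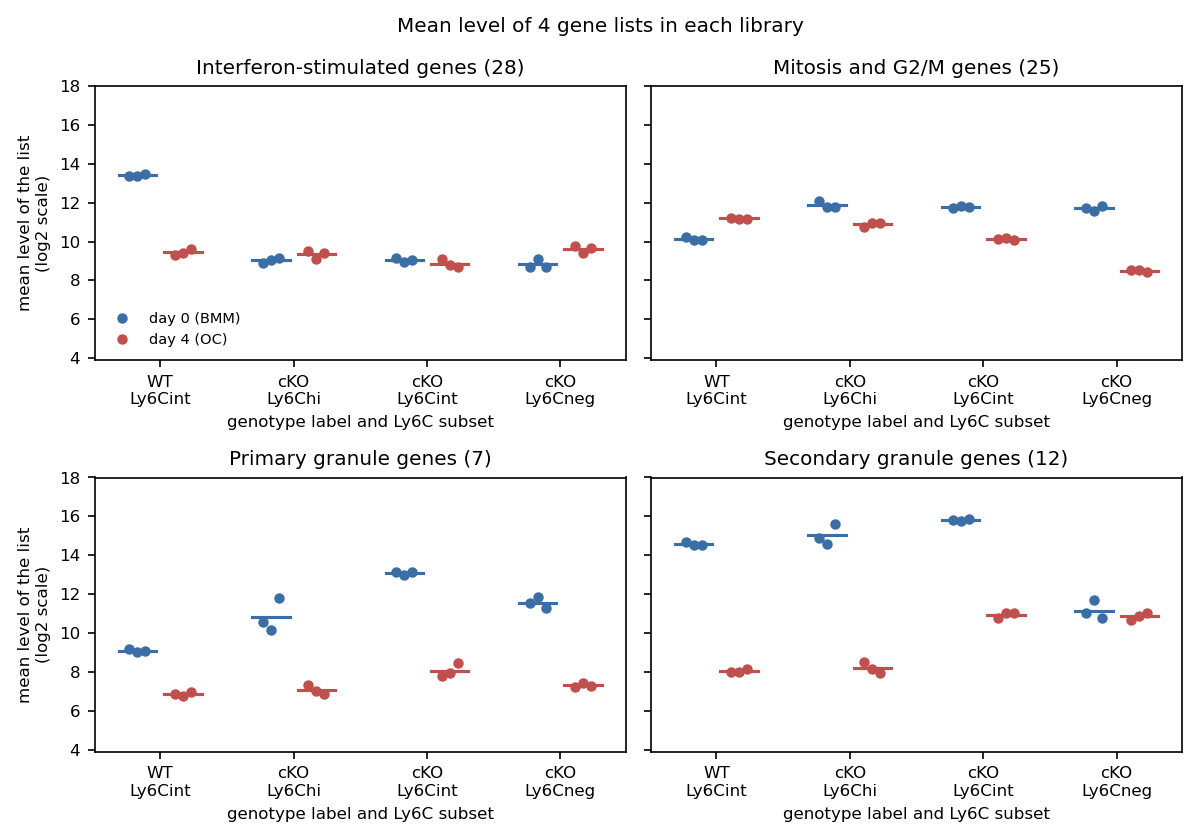
Mean normalised log2 level of 4 gene lists (28 interferon-stimulated, 25 mitosis, 7 primary granule and 12 secondary granule genes) in each library at day 0 and day 4, for WT Ly6Cint cells and for cKO-labelled Ly6Chi, Ly6Cint and Ly6Cneg cells. The labelled cKO Ly6Cint points fall in both granule lists, from 15.75 to 15.88 down to 10.75 to 11.02 for secondary granules.

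Among cells labelled cKO, the changes of Ly6Cint and Ly6Chi cultures differed for 1312 genes (3.38%), 686 more positive in Ly6Cint (1.76%) and 626 more negative (1.61%), with a median of -0.03, and 240 of the differences were of at least 1 (0.617%). When the 12 libraries compared were fitted alone, 413 genes were called. Secondary granule genes had a more positive change in 9 of 12. Ltf ended at 12.50 ± 0.12 (SD, n = 3) there and at 8.95 ± 0.57 in Ly6Chi osteoclasts (difference 3.32 ± 0.42, adjusted p = 3.62e-05), after 17.69 ± 0.05 and 17.45 ± 0.46 at day 0. Mitosis genes fell further in Ly6Cint cells in 21 of 25 (median difference -0.66) and S-phase genes in 15 of 25 (median -0.58). With only the compared libraries these counts were 7 of 12 for secondary granule, 11 of 25 for mitosis and 12 of 25 for S-phase genes. Of the 141 list members called in this comparison, 88 lost their call under at least 1 alternative. Il1b stood at 11.19 ± 0.02 in Ly6Cint and 7.88 ± 1.09 in Ly6Chi cells at day 0 and at 6.65 ± 0.08 and 5.86 ± 0.35 at day 4 (difference -2.51 ± 0.47, adjusted p = 0.00212), a call that was lost when the compared libraries were fitted alone.

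Ly6Cneg cultures differed more. Changes differed for 7964 genes (20.5%), 4178 more positive in Ly6Cint (10.7%) and 3786 more negative (9.74%), with a median of 0.03, and 3866 of the differences were of at least 1 (9.95%). All 12 secondary granule genes fell more in Ly6Cint cells (median difference -4.47). In Ly6Cneg cells the group median of these genes was 11.31 at day 0 and 10.68 at day 4. All 25 mitosis genes fell less in Ly6Cint cells (median difference 1.61), and in Ly6Cneg cells the group median of that list went from 11.68 to 8.34. Of the acid secretion genes 19 of 29 rose more in Ly6Cint cells and 4 less (median difference 0.66), and of the respiratory chain subunits 20 of 22 (median 1.29). Dcstamp rose by 2.75 in Ly6Cneg cells, 2.67 ± 0.23 less (adjusted p = 3.55e-10). Spib, an ETS factor, read 5.75, 6.10 and 5.24 and then 8.54, 8.44 and 8.45 in Ly6Cint cells, and in Ly6Cneg cells 7.78 ± 0.08 and 6.87 ± 0.15 (difference 3.70 ± 0.35, adjusted p = 1.94e-10). Interferon-stimulated genes had a more negative change in Ly6Cint cells in 20 of 28 (median difference -1).

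Col1a1, the collagen I chain of bone-forming and stromal cells, fell by 1.97 in Ly6Cint cells and rose in Ly6Cneg cells from 9.10 ± 0.53 to 13.06 ± 0.29 (difference -5.92 ± 0.53, adjusted p = 3.98e-09). Inhba, the activin A subunit, read 10.92, 10.62 and 10.92 and then 7.02, 6.90 and 6.91 in Ly6Cint cells, and rose from 8.42 ± 0.24 to 10.65 ± 0.31 in Ly6Cneg cells (difference -6.11 ± 0.25, adjusted p = 1.47e-19). Among the named genes, Lars2 had the most positive difference, 4.43 ± 0.61, with 14.97, 16.34 and 17.38 in the Ly6Cint osteoclast libraries after 12.34, 11.89 and 12.58 at day 0. Its osteoclast values spread over more than 2 units, and Mir6236 moved with it (difference 4.19). Lars2 and Mir6236 are known for sequence shared with ribosomal RNA, so their values are uncertain.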

How the data were processed

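RNA-seq values of 34 libraries in 12 groups (36 labelled samples, 2 not analysed here) were taken from the deposited table of 38942 genes. The authors deposited log2 values that they had already normalised. The labels do not state which transform, counting method or annotation was used, or whether counting used strand. The submitters' processing notes name HISAT2, DESeq2, deepTools, CASAVA 1.8.4 and bcl2fastq 2.17.1, with mm10, without saying what each did. Per the labels' protocols, total RNA was column-extracted and made into Illumina libraries. Genes with antisense or near-identical partners are uncertain.

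Low values lay on steps of whole reads, which gave relative depths of 0.573 to 1.416 (2.47-fold) but no totals, so a gene near 3.9 was below detection at these depths. The scale is compressed for genes with few reads. None of the 15 pairs among the 6 libraries was identical.

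No pseudocount was added, and limma 3.58.1 (R 4.3.3) was used to fit 12 group means with a trended and robust prior (22 residual degrees of freedom). A gene was tested if above 4.78 (5th percentile of values above the lowest) in at least 3 libraries, which kept 38873. P-values were Benjamini-Hochberg adjusted over all tested genes and called under 0.05. The change over culture was also contrasted with that of WT Ly6Cint, cKO Ly6Chi and cKO Ly6Cneg cells. All calls and adjusted p in the text are from limma. The method was tested on simulated data, drawn with normal errors and the same spread in every group. That setting has no floor for undetected genes and no unequal spread, so it does not check calls that these affect.

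Named genes were the 15 largest called rises and falls with a highest group mean of at least 6.25, groups that did not overlap and no placeholder symbol, up to 8 differences a direction in each contrast, up to 8 called members a list and a fixed set of osteoclast genes. Genes named beyond these are given as values. The lists, members and rules were chosen with earlier results of these data known, so lists are described by counts and medians without a test. The 43 lists hold 713 entries found in the table, with 6 more not found. Coordinates of promoters are from RefSeq on GRCm38.p6.

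Alternatives were no filter, a stricter filter, median centring, quantile normalisation, no trend or robust prior, sample weights, only the compared libraries, each library left out, a change of at least 1 and, chosen after seeing the data, a group mean of at least 8 and protein-coding genes only.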

Additional observations from a re-analysis of the deposited data

Results flagged for a closer look

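Differences in the change over osteoclast culture, tested as interactions with limma and adjusted over all tested genes, were called for 10119 genes between cells labelled cKO and WT cells of the Ly6Cint subset, for 1312 between Ly6Cint and Ly6Chi cells labelled cKO, and for 7964 between Ly6Cint and Ly6Cneg cells labelled cKO. The values below are the change in Ly6Cint cells labelled cKO minus the change in the other cells, on the log2 scale.

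The genes given are the 4 named ones at each end, taken among called genes with a highest group mean of at least 6.25 and no placeholder symbol. Genes outside that rule had more extreme differences in each comparison, against WT cells at the negative end only. Against WT cells the most positive of the named differences were Rsad2 (6.50), Adgre4 (6.39), Ifit3 (6.20) and Ms4a4c (5.90), and the most negative Npy (-4.93), Pdpn (-4.50), Ccl2 (-4.45) and Hist1h2ao (-4.40). Hist1h2ao, a histone gene with near-identical copies, read with an SD of 2.22 in the WT osteoclast libraries. Against Ly6Chi cells they were Ltf (3.32), Lcn2 (3.10), S100a9 (2.95) and Ngp (2.80), all of the secondary granule list, and Il1b (-2.51), P4ha3 (-2.35), Nkg7 (-2.30) and Fam178b (-2.26). Against Ly6Cneg cells they were Lars2 (4.43), Mir6236 (4.19), Spib (3.70) and Ighg1 (3.32), and Camp (-6.65), Ltf (-6.36), Inhba (-6.11) and Col1a1 (-5.92). Ighg1 went from 9.25 ± 0.80 to 4.61 ± 0.63 (SD, n = 3) in Ly6Cneg cells and was near 0 reads in Ly6Cint cells.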

How the results depend on the processing

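No paired analysis was possible because the labels carry only serial numbers that are unique to each library. The count of 18928 genes changed over culture was 9082 among genes with a group mean of at least 8 and 11590 with a change of at least 1, and 16199 to 19050 with single libraries left out. It was 15506 with quantile normalisation, 15729 with only the compared libraries and 12802 with protein-coding genes only. Sample weights gave 19243 and median centring 19731. Against WT cells, 10119 became 5255 with a difference of at least 1, and 8904 to 10824 with libraries left out. That count was 8159 with a group mean of at least 8, 11751 with only the compared libraries and 12799 with sample weights. Against Ly6Chi cells, 1312 became 413 with only the compared libraries, 2011 with a group mean of at least 8, 240 with a difference of at least 1, and 927 to 1945 with libraries left out. Without a trend or robust prior it was 904. Against Ly6Cneg cells, 7964 became 3866 with a difference of at least 1, and 7237 to 8262 with libraries left out. With only the compared libraries it was 7018, and with a group mean of at least 8 it was 6818. Counts for a group mean of at least 8 or for protein-coding genes are from fits and adjustments on those genes alone. The filtered counts rest on fewer genes or a stricter rule. For the others the cause was not tested. Genes at 0 reads at one stage and at 7 or above at the other numbered 4, and 96 with a level of 6 and 0 with a level of 8.

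Of 1129 values of 66 named gene results, 1111 kept their direction and side of the threshold, 18 lost their call and none reversed. Apart from the fixed set, these genes were picked as the largest called changes in the same data. Their stability is therefore no independent check and does not extend to other called genes. The losses were those of Hist1h2ao against WT cells with some libraries left out and of Il1b, P4ha3, Nkg7 and Fam178b against Ly6Chi cells. Of 559 list members called over culture, 502 kept their call throughout, and Aldoa alone reversed, with quantile normalisation. For the differences of change, 388 of 453 called list members kept their call throughout against WT cells (5 reversed under an alternative), 53 of 141 against Ly6Chi cells (1 reversed) and 388 of 456 against Ly6Cneg cells (1 reversed).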

Other observations

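Genes that went from 7 or above in every day 0 library to 0 reads in every osteoclast library were Meg3, Mcpt8, Fbp1 and Ambp. Meg3, a maternally expressed imprinted RNA, read 7.84, 7.06 and 7.34 at day 0. Mcpt8, a protease of basophils, read 7.72, 7.49 and 7.83. Fbp1, the gluconeogenic fructose-1,6-bisphosphatase, read 7.55, 7.50 and 7.13, and Ambp, a plasma protein precursor, 7.23, 7.50 and 7.39. No gene went the other way at that level. With a level of 6, 77 genes went to 0 reads and 19 came from 0 reads. A level of 3.9 means not detected at this depth.

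Sterol synthesis genes were mixed over culture, with 5 of 20 higher and 10 lower, but 13 of 20 had a more positive change than in WT cells and none a more negative one (median difference 0.56). Insig1, a sterol sensor partner, rose by 1.14 and changed by -0.59 in WT cells, and Fdps, the enzyme blocked by bisphosphonate drugs, fell by 1.51. Of the serine and one-carbon enzymes 8 of 12 had a more negative change than in WT cells and 2 a more positive one, with Psat1 at -1.84 against 1.22. Immediate early and heat shock genes fell in 10 of 15 and rose in 3 (median -0.66), and 12 of 15 had a more negative change than in Ly6Cneg cells (median difference -1.99).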
